A study of Mus musculus with 10 samples.

Results

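The genes of fibroblast growth factor (FGF) and epidermal growth factor (EGF) signalling described here are the FGF genes and the Fgfr receptor genes, Egf, Egfr and its relatives Erbb2 to Erbb4, the Sprouty and Spred inhibitors, the dual specificity phosphatases (Dusp) and the Ets factors Etv4 and Etv5. They were chosen by symbol, as genes whose symbol the platform annotation gives alone to a probe set, and there were 65 of them among 18193 genes measured. For a gene with several probe sets the brightest was used, by its mean over the 10 arrays, and the 65 genes had 138 probe sets in all. Fgfr1op2, a fusion partner of the FGFR1 oncogene and not a receptor, entered through its symbol. Etv1 was not analysed here, as its probe sets carry a second symbol.

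Affymetrix arrays measured RNA of mouse cells in 3 groups given by the sample titles. The first group, with 3 arrays, is labelled as neural stem cells (NSC) differentiated from induced pluripotent stem (iPS) cells that had been made with Oct4 alone. The second, with 3 arrays, is labelled as those iPS cells, produced from adult brain NSC with a pMX retrovirus carrying mouse Oct4 cDNA. The third, with 4 arrays, is labelled as NSC from adult brain without the vector. All cells trace back to OG2 Rosa26 neo/lacZ mice with an Oct4-eGFP transgene, bred to ICR females. By the protocols, iPS cells grew on irradiated embryonic fibroblasts in serum medium with leukaemia inhibitory factor (LIF), from GFP-positive colonies picked by hand; the sources used here do not give how many lines stand behind the 3 arrays, nor the medium of the NSC cultures. Nothing in the labels says that replicates were independent cultures or animals, so p-values measure the spread between these samples, which may be technical.

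FGFs and EGF bind receptor tyrosine kinases at the cell surface, which switch on the Ras and Erk kinase cascade. Erk signalling raises the transcription of its own inhibitors, among them Sprouty and Spred proteins and the phosphatase Dusp6, and of the Ets factors of the PEA3 family. Neural stem cells in culture are commonly kept dividing with FGF2 and EGF, whereas in mouse pluripotent cells FGF4 made by the cells themselves is known to drive Erk signalling and the exit from self-renewal.

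The marker genes went against the labels of 2 groups, iPS and iPS-derived NSC. All 14 pluripotency markers measured were higher in the samples labelled iPS-derived NSC than in either other group, with array means of 11.24 to 11.30 there, 4.68 to 4.71 in the samples labelled iPS and 4.71 to 4.77 in brain NSC. Of 12 neural stem cell markers, 11 were lower in the samples labelled iPS-derived NSC, where array means lay at 6.35 to 6.38, against 11.58 to 11.67 in samples labelled iPS and 11.43 to 11.72 in brain NSC. Pou5f1, which encodes Oct4, averaged 13.29 in the samples labelled iPS-derived NSC, 4.66 in samples labelled iPS and 4.55 in brain NSC. Fabp7, a marker of neural stem cells, averaged 4.43 in the samples labelled iPS-derived NSC, 14.17 in samples labelled iPS and 14.45 in brain NSC. Groups are still called by their deposited labels here, and each direction below that involves them rests on labels the markers contradict. The 12 feeder fibroblast markers summed to a log2 level of 9.54 to 10.80 in the samples labelled iPS-derived NSC, against 8.83 to 8.88 in samples labelled iPS and 8.70 to 8.85 in brain NSC. Of these 12, 5 were called higher and 1 lower over the samples labelled iPS. Their part in the differences below was not tested. Brain NSC replicate 4 stood apart, with correlations over all genes of 0.9898 to 0.9925 with the other brain NSC arrays, which correlated at 0.9963 to 0.9975 among themselves. In cultures of several cell types, fewer cells of a type and less RNA per cell cannot be told apart.

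Values are deposited RMA levels on the log2 scale, and differences are log2 differences with the standard error (SE) of limma, positive where the group named first is higher. A gene was called higher or lower when it differed at least 2-fold with an adjusted p under 0.05. In the samples labelled iPS-derived NSC over samples labelled iPS, 9 of the 65 genes were called higher (13.8%), beside 10.8% of all genes, and 15 were called lower (23.1%), beside 14.4% of all genes. Over brain NSC, 9 were called higher, beside 11.3% of all genes, and 13 were called lower (20.0%), beside 14.0% of all genes. For the samples labelled iPS over brain NSC, 4 were called higher (6.15%), beside 0.951% of all genes, and 1 was called lower (1.54%), beside 0.890%. These comparisons share arrays. An unadjusted p under 0.05 was reached by 64.7%, 66.1% and 32.5% of all genes in the 3 comparisons, the background of such counts below. The median difference of the 65 genes was 0.14, 0.16 and 0.06 in the 3 comparisons, beside 0.12, 0.13 and 0.01 over all genes. In all, 38 of the 65 genes were called in no comparison, and 21 lay below their array's median on all 10 arrays, 14 of them among the 22 genes of the FGF ligand family. The share of all genes is not given here for these counts.

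**Figure D1:**
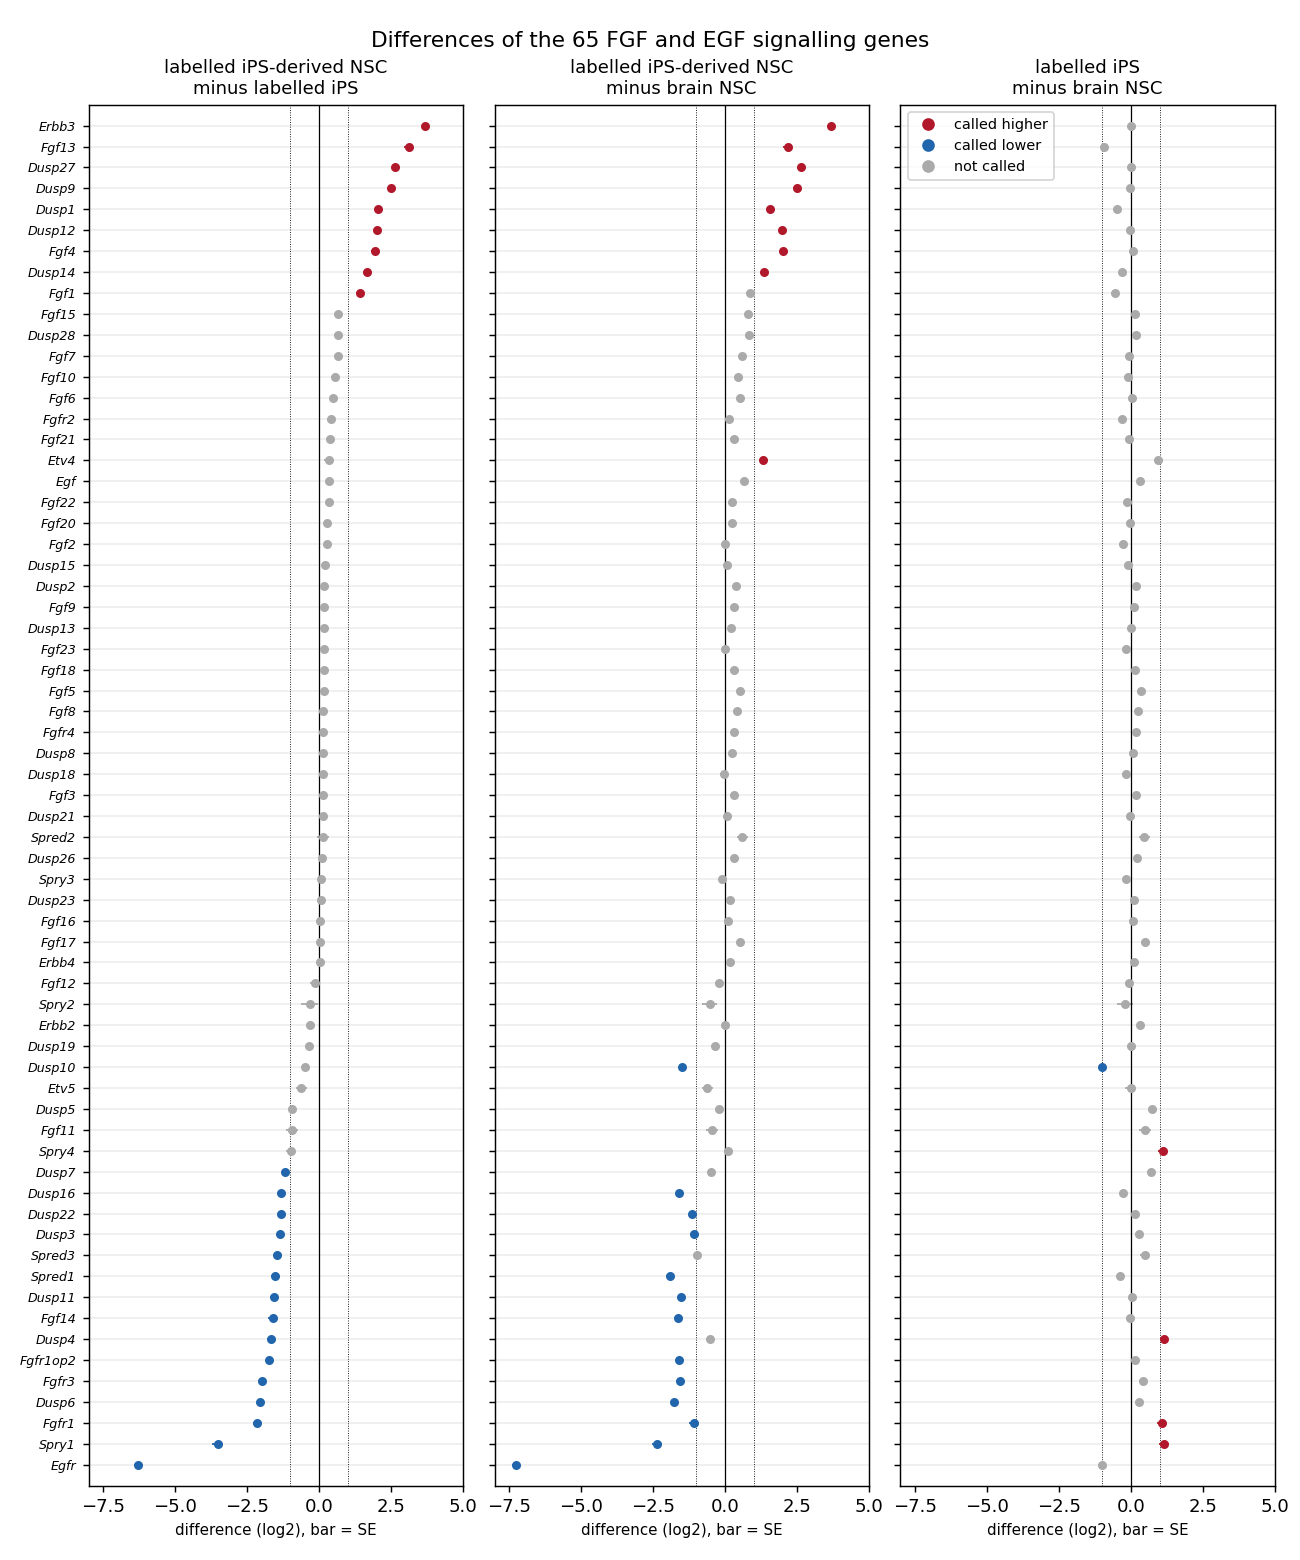
Log2 differences of the 65 genes, 1 row per gene, for the samples labelled iPS-derived NSC minus samples labelled iPS, for the samples labelled iPS-derived NSC minus brain NSC, and for the samples labelled iPS minus brain NSC. Points are differences, bars their SE, dotted lines mark 2-fold, and colour gives the call; Erbb3 lies at the top of the first panel at 3.68 and Egfr at the bottom at -6.27.

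The upstream sequences of 4 genes that stand for a ligand, a receptor and both kinds of inhibitor are shown because these genes are described in full below. They are the 250 bases before the annotated start, read 5′ to 3′ on the gene's strand, from RefSeq with the build GRCm38.p6. Capitals mark the GC box, a short element bound by Sp1-type factors and searched on both strands as GGGCGG. Fgf4 (chr7:144861136-144861385, plus strand) held 2 GC boxes, Egfr (chr11:16751953-16752202, plus strand) held 1 on the opposite strand, Spry1 (chr3:37639697-37639946, plus strand) held 1, and Dusp6 (chr10:99262981-99263230, plus strand) had no match to any of the 5 motifs searched.
Fgf4: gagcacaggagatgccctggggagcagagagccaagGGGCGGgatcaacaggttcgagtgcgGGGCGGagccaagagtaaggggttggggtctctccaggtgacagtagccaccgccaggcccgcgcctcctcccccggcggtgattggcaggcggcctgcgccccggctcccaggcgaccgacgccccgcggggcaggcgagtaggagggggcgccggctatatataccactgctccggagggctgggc
Egfr: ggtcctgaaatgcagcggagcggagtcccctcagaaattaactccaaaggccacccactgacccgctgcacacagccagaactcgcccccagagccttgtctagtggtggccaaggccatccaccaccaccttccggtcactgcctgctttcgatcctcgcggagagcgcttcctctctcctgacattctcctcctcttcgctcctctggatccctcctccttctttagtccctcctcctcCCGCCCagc
Spry1: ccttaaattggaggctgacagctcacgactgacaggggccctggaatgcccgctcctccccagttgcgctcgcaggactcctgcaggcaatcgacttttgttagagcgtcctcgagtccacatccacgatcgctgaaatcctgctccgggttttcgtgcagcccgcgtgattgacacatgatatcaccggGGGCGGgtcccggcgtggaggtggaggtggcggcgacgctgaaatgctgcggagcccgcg
Dusp6: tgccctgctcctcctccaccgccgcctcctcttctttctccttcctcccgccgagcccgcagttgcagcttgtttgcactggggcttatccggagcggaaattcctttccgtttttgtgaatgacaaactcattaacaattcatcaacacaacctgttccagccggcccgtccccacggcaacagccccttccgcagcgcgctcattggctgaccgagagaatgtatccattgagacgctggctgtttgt

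A promoter was found for 48 of the 65 genes. The GC box was present in 31 of these 48 (64.6%), in 32.9% of all 27025 promoters of the table and in 50.0% of the 14368 promoters of genes measured here. It was in 10 of the 13 promoters of genes called lower in the samples labelled iPS-derived NSC over those labelled iPS (76.9%) and in 3 of the 6 of genes called higher (50.0%). The octamer ATGCAAAT, the element read by Oct4-type factors, matched in 0 of 48, beside 1.39% of the promoters of measured genes, and the Ets sequence CCGGAAGT also matched in 0 of 48, beside 4.48%. The cyclic AMP element TGACGTCA was in 2 of 48 (4.17%), beside 2.28%, and TATAAA in 1 of 48 (2.08%), beside 9.01%. No motif contains another, all were searched on both strands, and a match or its lack describes these letters in this window alone.

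Among the 15 secreted FGF genes, 2 were called higher and 0 lower by limma in the samples labelled iPS-derived NSC over those labelled iPS, with 8 of 15 at an unadjusted p under 0.05, beside 64.7% of all genes. Over brain NSC, 1 was called higher, and 12 had an unadjusted p under 0.05, beside 66.1%. For the samples labelled iPS over brain NSC, limma called 0 of the 15, with 5 at an unadjusted p under 0.05, beside 32.5%. Of all genes, 10.8%, 11.3% and 0.951% were called higher in the 3 comparisons, and 14.4%, 14.0% and 0.890% lower. Fgf4, the ligand made by pluripotent cells, read 8.37, 8.10 and 8.16 in the samples labelled iPS-derived NSC, 6.16, 6.40 and 6.23 in samples labelled iPS and 6.14, 5.97, 6.34 and 6.30 in brain NSC. The samples labelled iPS-derived NSC were high and overlapped neither other group, which overlapped each other. Fgf4 was 3.85-fold higher than in the samples labelled iPS (1.94 ± 0.12, SE, adjusted p = 5.75e-09) and 4.06-fold higher than in brain NSC (2.02 ± 0.11, adjusted p = 1.62e-09). Its 3 other probe sets differed more, by 6.34, 6.26 and 4.88 over the samples labelled iPS and by 6.19, 5.97 and 5.05 over brain NSC.

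Fgf1, a broadly acting ligand of all FGF receptors, depended on the probe set. The brightest averaged 7.91 ± 0.24 in the samples labelled iPS-derived NSC, 6.50 ± 0.14 in samples labelled iPS and 7.05 ± 0.14 in brain NSC (SD, n = 3, 3 and 4), a called difference of 1.42 over the samples labelled iPS. Its other probe sets gave -2.13 and -1.43 in that comparison, and the mean of its probe sets gave -0.72, so the direction for Fgf1 is uncertain.

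Fgf2, the factor commonly added to neural stem cell cultures, was dim on every array. It read 3.49, 3.48 and 3.33 in the samples labelled iPS-derived NSC, 3.28, 3.06 and 3.14 in samples labelled iPS and 3.49, 3.52, 3.41 and 3.30 in brain NSC, below the lower quartile of each array. Fgf5, a gene of the primed epiblast, read 4.34, 4.56 and 4.50 in the samples labelled iPS-derived NSC, 3.97, 4.62 and 4.34 in samples labelled iPS and 3.83, 4.06, 3.83 and 4.06 in brain NSC. Fgf8, a patterning signal of the embryo, read 4.48, 4.65 and 4.41 in the samples labelled iPS-derived NSC, 4.27, 4.51 and 4.33 in samples labelled iPS and 4.35, 3.85, 4.16 and 4.07 in brain NSC. Neither was called in any comparison, and both lay below the median of every array. Fgf15, a gut hormone in mice, read 5.77, 5.77 and 5.71 in the samples labelled iPS-derived NSC, 5.05, 5.20 and 4.99 in samples labelled iPS and 5.15, 4.84, 4.96 and 4.87 in brain NSC. All values in the samples labelled iPS-derived NSC were above all others, yet the Fgf15 differences of 0.67 over the samples labelled iPS and 0.80 over brain NSC fell short of 2-fold. Of the 3 endocrine FGF genes, limma called 0 in either comparison, with 2 of 3 at an unadjusted p under 0.05 in each, beside 64.7% and 66.1% of all genes.

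Egf itself was dim and was not called in any comparison. It read 4.82, 4.83 and 4.80 in the samples labelled iPS-derived NSC, 4.43, 4.58 and 4.37 in samples labelled iPS and 4.31, 3.92, 4.22 and 4.08 in brain NSC. The groups did not overlap, and the largest of its differences, 0.68 over brain NSC (adjusted p = 5.24e-05), was 1.6-fold.

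Of the 4 intracellular FGF-homologous genes, which act on sodium channels and not through the receptors, Fgf13 was higher and Fgf14 lower in the samples labelled iPS-derived NSC. Fgf13 read 7.81, 7.71 and 7.78 there, 4.36, 5.06 and 4.54 in the samples labelled iPS and 5.73, 5.70, 5.34 and 5.59 in brain NSC. All 3 groups stood apart, and Fgf13 was 8.65-fold higher than in the samples labelled iPS (3.11 ± 0.16, SE, adjusted p = 8.04e-10) and 4.53-fold higher than in brain NSC (2.18 ± 0.15, adjusted p = 1.6e-08). Fgf13 lay below the array medians in the samples labelled iPS and is not shown to be above background there, so the 8.65-fold is inexact. Its other probe set differed by 0.84 over the samples labelled iPS, and the mean of both by 1.97. Fgf14 read 3.32, 3.31 and 3.29 in the samples labelled iPS-derived NSC, 5.17, 4.87 and 4.71 in samples labelled iPS and 4.91, 5.34, 4.89 and 4.59 in brain NSC. Its differences were -1.61 ± 0.16 from the samples labelled iPS (adjusted p = 1.11e-06) and -1.62 ± 0.15 from brain NSC (adjusted p = 4.6e-07). It lay below the median of every array, and no level there is shown to be above background. Fgf14 lies on chromosome 14, whose 274 genes with a mean of at least 7 had a median difference of -0.74 over the samples labelled iPS, beside -0.14 for all such genes, and the part of this shift was not tested. With the mean of its 4 probe sets, neither difference reached 2-fold (-0.68 and -0.75).

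With the brightest probe set of each gene, the EGF receptor gene showed the largest difference of the 65 genes. Egfr read 4.30, 4.48 and 4.50 in the samples labelled iPS-derived NSC, 10.88, 10.54 and 10.67 in samples labelled iPS and 11.98, 11.64, 11.70 and 11.44 in brain NSC. The samples labelled iPS-derived NSC were low without exception, and no groups overlapped. Egfr there differed by -6.27 ± 0.14 from the samples labelled iPS (SE, adjusted p = 1.35e-13) and by -7.26 ± 0.13 from brain NSC (adjusted p = 1.86e-14). Its level in the samples labelled iPS-derived NSC lay at the lower quartile of those arrays (4.37 to 4.41) and is not shown to be above background, so no exact fold is given. In the samples labelled iPS over brain NSC the difference was -1.0 ± 0.13 (adjusted p = 0.000174), at 1.99-fold just short of a call. The 7 Egfr probe sets ranged from -6.27 to 0.28 over the samples labelled iPS; 4 of them read 7.35 or more on average in those arrays and were lower in the samples labelled iPS-derived NSC, and the 3 others read 5.89 or less there. Averaged over the 7, the differences were -2.15 over the samples labelled iPS and -2.42 over brain NSC, both still called.

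Erbb3, a receptor of neuregulins with little kinase activity of its own, moved the opposite way. It read 8.52, 8.66 and 8.39 in the samples labelled iPS-derived NSC, 4.89, 4.92 and 4.72 in samples labelled iPS and 4.95, 4.69, 4.89 and 4.81 in brain NSC. The samples labelled iPS-derived NSC were high, and the other 2 groups overlapped. Erbb3 lay below the array medians in those 2 groups and is not shown to be above background there, so its folds are inexact. Erbb3 was 12.8-fold higher than in the samples labelled iPS (3.68 ± 0.11, adjusted p = 2.2e-12) and 12.9-fold higher than in brain NSC (3.69 ± 0.10, adjusted p = 9.17e-13), the largest rise when each gene is read by its brightest probe set. Its other probe set differed by 0.10 and 0.24, and the mean of both by 1.89 and 1.97. Averaged over probe sets, Fgf4 (4.86 and 4.81) and Dusp9 (4.38 and 4.38) rose more than Erbb3 in both comparisons.

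Erbb2, the partner receptor that binds no ligand itself, read 6.87, 6.82 and 7.05 in the samples labelled iPS-derived NSC, 7.31, 7.22 and 7.16 in samples labelled iPS and 6.91, 6.78, 6.90 and 7.01 in brain NSC. Erbb4, another neuregulin receptor, read 3.24, 3.42 and 3.28 in the samples labelled iPS-derived NSC, 3.33, 3.23 and 3.27 in samples labelled iPS and 3.49, 3.04, 2.85 and 3.22 in brain NSC, below the lower quartile of every array. Neither gene was called in any comparison.

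**Figure D2:**
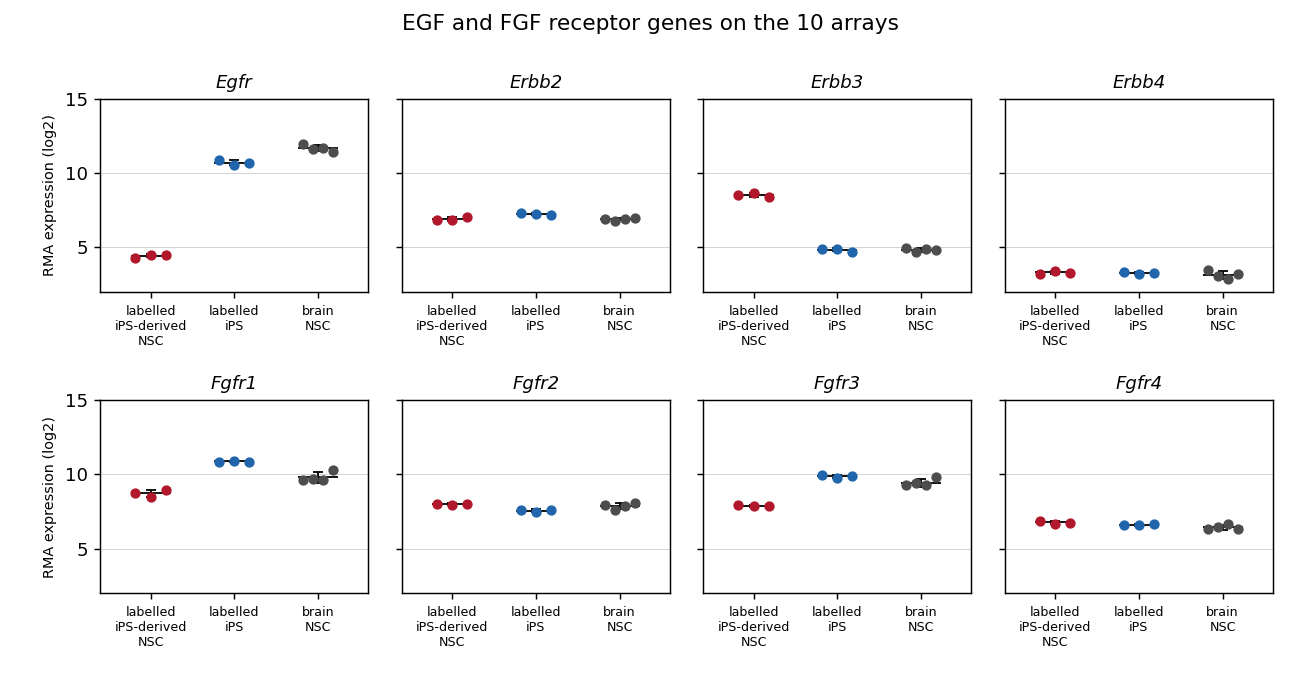
RMA levels (log2) of the ErbB and FGF receptor genes on the 10 arrays, with the samples labelled iPS-derived NSC, samples labelled iPS and brain NSC from left to right. Points are arrays, lines group means and bars their SD; Egfr is at 4.43 in the samples labelled iPS-derived NSC, 10.70 in samples labelled iPS and 11.69 in brain NSC, and Erbb3 is at 8.52 in the samples labelled iPS-derived NSC, 4.84 in samples labelled iPS and 4.83 in brain NSC.

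Of the 4 FGF receptor genes, Fgfr1 and Fgfr3 were lower in the samples labelled iPS-derived NSC, and Fgfr2 and Fgfr4 were not called. Fgfr1, the main FGF receptor of neural progenitors, read 8.74, 8.49 and 8.92 in the samples labelled iPS-derived NSC, 10.85, 10.92 and 10.80 in samples labelled iPS and 9.62, 9.66, 9.58 and 10.30 in brain NSC. The 3 groups did not overlap, with brain NSC between the other 2 and its replicate 4 above the rest. Fgfr1 was 4.41-fold lower than in the samples labelled iPS (-2.14 ± 0.17, SE, adjusted p = 1.11e-07) and 2.1-fold lower than in brain NSC (-1.07 ± 0.16, adjusted p = 5.35e-05). It was 2.1-fold higher in the samples labelled iPS than in brain NSC (1.07 ± 0.16, adjusted p = 0.000617). Without brain NSC replicate 4 the difference of the samples labelled iPS-derived NSC from brain NSC was -0.90, and without iPS-derived NSC replicate 2 it was -0.96, both short of 2-fold. Without brain NSC replicate 3 the difference of the samples labelled iPS from brain NSC was 1.00, just short of it. Some types of probe set can cross-hybridise or match several transcripts of the same gene. Without these multiple-match types, the Fgfr1 differences were -0.54, -0.26 and 0.28 and none was called. Averaged over its probe sets, the differences of -0.94 from brain NSC in the samples labelled iPS-derived NSC and of 0.77 in the samples labelled iPS were not called.

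Fgfr1 lies on chromosome 8, as does Dusp4. In the samples labelled iPS over brain NSC, the 502 chromosome 8 genes with a mean of at least 7 had a median difference of 0.44 with 90% of them above 0, beside 0.04 and 54.9% for all 8642 such genes. The part of this chromosome shift in the differences of Fgfr1 and Dusp4 was not tested.

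Fgfr3, a receptor found in neural progenitors and astrocytes, read 7.92, 7.85 and 7.83 in the samples labelled iPS-derived NSC, 9.97, 9.73 and 9.85 in samples labelled iPS and 9.25, 9.44, 9.25 and 9.82 in brain NSC. The samples labelled iPS-derived NSC were below all others, while the other 2 groups overlapped. It was 3.95-fold lower than in the samples labelled iPS (-1.98 ± 0.14, adjusted p = 2.31e-08) and 2.98-fold lower than in brain NSC (-1.57 ± 0.13, adjusted p = 1.19e-07).

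Fgfr2 read 8.03, 7.93 and 8.01 in the samples labelled iPS-derived NSC, 7.60, 7.47 and 7.62 in samples labelled iPS and 7.91, 7.62, 7.83 and 8.09 in brain NSC, with differences of 0.43, 0.13 and -0.30. Fgfr4 read 6.87, 6.67 and 6.74 in the samples labelled iPS-derived NSC, 6.56, 6.57 and 6.68 in samples labelled iPS and 6.33, 6.46, 6.63 and 6.31 in brain NSC, with 0.15 over the samples labelled iPS and 0.33 over brain NSC. A dimmer Fgfr4 probe set, used when the multiple-match types were left out, read 5.72 in the samples labelled iPS-derived NSC, 4.38 in samples labelled iPS and 4.39 in brain NSC, which was called (1.34 and 1.33). Fgfr1op2 was called lower in the samples labelled iPS-derived NSC, with differences of -1.75 over the samples labelled iPS and -1.61 over brain NSC. Another bright Fgfr1op2 probe set differed by only -0.17 and -0.44, and averaged over its probe sets neither reached 2-fold (-0.92 and -0.92).

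Of the 7 Sprouty and Spred genes, whose proteins restrain signalling between receptor and Erk, 3 were called lower and 0 higher by limma in the samples labelled iPS-derived NSC over those labelled iPS, with 4 of 7 at an unadjusted p under 0.05, beside 64.7% of all genes. Over brain NSC, 2 were called lower, beside 14.0% of all genes. In the samples labelled iPS over brain NSC, 2 were called higher, beside 0.951%. In the first of these comparisons, 10.8% of all genes were called higher and 14.4% lower. Spry1 read 8.53, 8.23 and 8.45 in the samples labelled iPS-derived NSC, 11.88, 11.96 and 11.92 in samples labelled iPS and 10.63, 10.39, 10.66 and 11.36 in brain NSC. As for Fgfr1, the groups stood apart with brain NSC in the middle. Spry1 was 11.4-fold lower than in the samples labelled iPS (-3.51 ± 0.19, SE, adjusted p = 1.41e-09) and 5.12-fold lower than in brain NSC (-2.36 ± 0.18, adjusted p = 4.39e-08). It was 2.23-fold higher in the samples labelled iPS than in brain NSC (1.16 ± 0.18, adjusted p = 0.000646).

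Spred1, which acts on Ras through neurofibromin, read 9.39, 9.70 and 9.21 in the samples labelled iPS-derived NSC, 10.95, 10.97 and 10.94 in samples labelled iPS and 11.56, 11.34, 11.48 and 11.00 in brain NSC. The samples labelled iPS-derived NSC were low, with differences of -1.52 ± 0.15 over the samples labelled iPS (adjusted p = 7.47e-07) and -1.91 ± 0.14 over brain NSC (adjusted p = 2.96e-08). Its 8 probe sets ranged from -3.54 to 0.18 over the samples labelled iPS. Spred3 was called lower over the samples labelled iPS (-1.45) and missed 2-fold over brain NSC (-0.97).

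Spry4 read 10.15, 9.96 and 9.87 in the samples labelled iPS-derived NSC, 10.89, 10.98 and 11.07 in samples labelled iPS and 9.78, 9.49, 10.26 and 9.97 in brain NSC. The samples labelled iPS were the high ones, 2.16-fold above brain NSC (1.11 ± 0.15, adjusted p = 0.000265), while the samples labelled iPS-derived NSC overlapped brain NSC and were at -0.99 against samples labelled iPS, just under 2-fold. Without brain NSC replicate 2 the Spry4 difference of the samples labelled iPS from brain NSC was 0.98, and averaged over its 4 probe sets it was 0.76; neither was called. Its 4 probe sets differed in sign over the samples labelled iPS, from -0.99 to 0.70.

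Spry2 read 10.30, 11.18 and 10.69 in the samples labelled iPS-derived NSC, 11.03, 11.06 and 11.05 in samples labelled iPS and 11.74, 11.07, 11.74 and 10.45 in brain NSC. Spred2 read 10.23, 10.13 and 10.39 in the samples labelled iPS-derived NSC, 10.17, 10.09 and 10.09 in samples labelled iPS and 9.52, 9.39, 9.35 and 10.32 in brain NSC. All groups of both genes overlapped and neither was called, with the largest difference of the pair at 0.60 for Spred2 over brain NSC.

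Calls among the 10 MAP kinase phosphatases went in both directions, as they did over all genes. In the samples labelled iPS-derived NSC over samples labelled iPS, 2 were called higher, beside 10.8% of all genes, and 4 lower, beside 14.4%. Over brain NSC, 2 were called higher, beside 11.3%, and 3 lower, beside 14.0%. Dusp6, the cytoplasmic phosphatase of Erk, read 10.38, 10.44 and 10.44 in the samples labelled iPS-derived NSC, 12.40, 12.57 and 12.41 in samples labelled iPS and 12.12, 12.11, 12.17 and 12.36 in brain NSC. The samples labelled iPS-derived NSC were 4.11-fold lower than the samples labelled iPS (-2.04 ± 0.10, SE, adjusted p = 4.18e-10) and 3.41-fold lower than brain NSC (-1.77 ± 0.09, adjusted p = 7.99e-10), while the other 2 groups differed by 0.27 (adjusted p = 0.0543).

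Dusp9, another phosphatase with a preference for Erk, was high in the samples labelled iPS-derived NSC, at 7.77, 7.38 and 7.60, against 5.00, 5.12 and 5.13 in samples labelled iPS and 5.06, 4.93, 5.16 and 5.22 in brain NSC. It was 5.66-fold higher than in the samples labelled iPS (2.50 ± 0.12, adjusted p = 2.95e-10) and 5.64-fold higher than in brain NSC (2.49 ± 0.11, adjusted p = 1.26e-10). Dusp9 lay below the array medians in both other groups and is not shown to be above background there, so its folds are inexact. Its 2 other probe sets gave 5.76 and 4.88 over the samples labelled iPS. Dusp1, an early-response phosphatase of stress kinases, was also high there, at 10.70, 10.65 and 10.60, against 8.74, 8.48 and 8.57 in the samples labelled iPS and 9.13, 9.08, 9.08 and 9.00 in brain NSC. Its differences were 2.06 ± 0.09 over the samples labelled iPS (adjusted p = 2.59e-10) and 1.58 ± 0.09 over brain NSC (adjusted p = 1.84e-09), with no overlap between any groups.

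Dusp4, a nuclear phosphatase, read 8.19, 8.18 and 7.75 in the samples labelled iPS-derived NSC, 9.72, 9.75 and 9.67 in samples labelled iPS and 8.40, 8.86, 8.49 and 8.54 in brain NSC. The samples labelled iPS were above both other groups, with a Dusp4 difference of -1.67 ± 0.14 for the samples labelled iPS-derived NSC over those labelled iPS (adjusted p = 1.35e-07) and of 1.14 ± 0.13 for the samples labelled iPS over brain NSC (adjusted p = 7.35e-05). Dusp10, a phosphatase of stress kinases, read 5.68, 6.06 and 5.87 in the samples labelled iPS-derived NSC, 6.24, 6.42 and 6.41 in samples labelled iPS and 7.49, 7.31, 7.13 and 7.51 in brain NSC. It was lower than in brain NSC in the samples labelled iPS-derived NSC (-1.49 ± 0.12, adjusted p = 8.13e-08) and, at 2.01-fold, in samples labelled iPS (-1.0 ± 0.12, adjusted p = 9.7e-05). Without brain NSC replicate 1, brain NSC replicate 4 or iPS replicate 1 this last difference was -0.96, -0.95 and -0.95 and was not called. Averaged over both Dusp10 probe sets, neither difference from brain NSC was called (-0.90 and -0.46). Also called lower were Dusp16 (-1.31 over the samples labelled iPS, -1.58 over brain NSC) and Dusp7 (-1.17 over the samples labelled iPS). A second quantile normalization ended the Dusp7 call (-0.89). Dusp16 lost both calls (-0.15 and -0.49) once the multiple-match types of probe set were dropped, which left it a dim one. Dusp16 averaged over its probe sets differed by -0.73 and -1.03.

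Among the 14 other dual specificity phosphatases, 3 were called higher and 3 lower in the samples labelled iPS-derived NSC, over each of the other groups. Of all genes, 10.8% were called higher and 14.4% lower over the samples labelled iPS, and 11.3% and 14.0% over brain NSC. Dusp27 read 7.51, 7.64 and 7.80 in the samples labelled iPS-derived NSC, 4.96, 4.89 and 5.15 in samples labelled iPS and 4.96, 5.03, 5.02 and 4.99 in brain NSC. It was 6.28-fold higher than in the samples labelled iPS (2.65 ± 0.10, adjusted p = 4.34e-11) and 6.27-fold higher than in brain NSC (2.65 ± 0.10, adjusted p = 1.86e-11). Dusp27 lay below the array medians in both other groups and is not shown to be above background there, so these folds are inexact. Dusp12 differed by 2.01 and 1.97 and Dusp14 by 1.65 and 1.36 in these comparisons. Without the multiple-match types of probe set, Dusp12 fell short of 2-fold (0.93 and 0.54). The dim Dusp12 probe set then used read 5.85 in the samples labelled iPS-derived NSC, 4.92 in samples labelled iPS and 5.31 in brain NSC. Lower were Dusp11, which acts on RNA (-1.58 and -1.53), Dusp3 (-1.34 and -1.06) and Dusp22 (-1.31 and -1.15). A second quantile normalization ended the calls over brain NSC of Dusp3 (-0.81) and Dusp22 (-0.91). A second Dusp11 probe set went the opposite way, by 1.04 and 1.13, so the direction for that gene is uncertain. The 2 other Dusp3 probe sets showed no fall, with 0.08 and -0.10 over the samples labelled iPS and 0.08 and 0.19 over brain NSC.

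**Figure D3:**
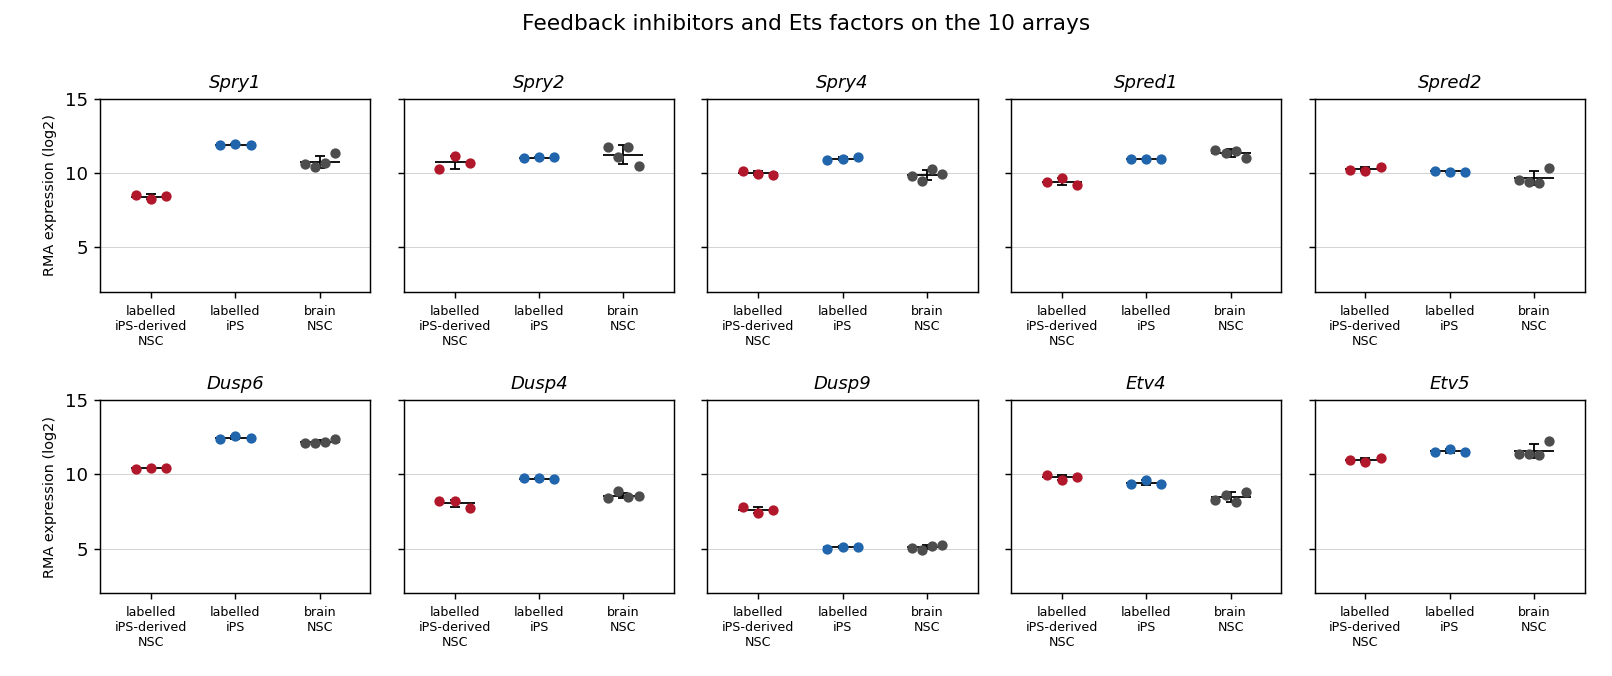
RMA levels (log2) of Sprouty, Spred, phosphatase and Ets factor genes on the 10 arrays, with the samples labelled iPS-derived NSC, samples labelled iPS and brain NSC from left to right. Points are arrays, lines group means and bars their SD; Spry1 is at 8.40 in the samples labelled iPS-derived NSC, 11.92 in samples labelled iPS and 10.76 in brain NSC, while Dusp9 is at 7.59 in the first of these groups, against 5.08 and 5.09 in the other 2.

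Of the PEA3 factors, known as transcriptional targets of FGF signalling, Etv4 was called in 1 comparison and Etv5 in 0 of 3. Etv4 read 9.94, 9.59 and 9.84 in the samples labelled iPS-derived NSC, 9.35, 9.60 and 9.34 in samples labelled iPS and 8.27, 8.62, 8.14 and 8.83 in brain NSC. Brain NSC was the low group, and the other 2 overlapped. Etv4 was 2.51-fold higher in the samples labelled iPS-derived NSC than in brain NSC (1.33 ± 0.16, SE, adjusted p = 4.53e-06). It was 0.96 ± 0.16 above brain NSC in the samples labelled iPS, short of 2-fold. With the mean of its 2 probe sets, the difference of the samples labelled iPS-derived NSC from brain NSC was 0.91 and was not called. Etv5 read 10.94, 10.83 and 11.09 in the samples labelled iPS-derived NSC, 11.51, 11.69 and 11.50 in samples labelled iPS and 11.33, 11.36, 11.32 and 12.24 in brain NSC. Its difference was -0.61 over the samples labelled iPS (adjusted p = 0.0181) and -0.61 over brain NSC (adjusted p = 0.012), both under 2-fold by limma, with the unadjusted p also under 0.05. Without brain NSC replicate 4 the Etv5 difference from brain NSC was -0.39. Another Etv5 probe set gave 0.35 over the samples labelled iPS, and the mean of its probe sets -0.19.

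Probe sets of a gene did not always go together. Of the called genes with several probe sets, 5 of 17 had probe sets of both signs in the samples labelled iPS-derived NSC over those labelled iPS, 4 of 17 over brain NSC, and 1 of 3 in the samples labelled iPS over brain NSC. Fgf1 and Dusp11 had probe sets that were at least 2-fold apart from the samples labelled iPS in both directions. The plot of separate probe sets shows that for Fgf4 and Dusp9 the brightest probe set gave the smallest difference.

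**Figure D4:**
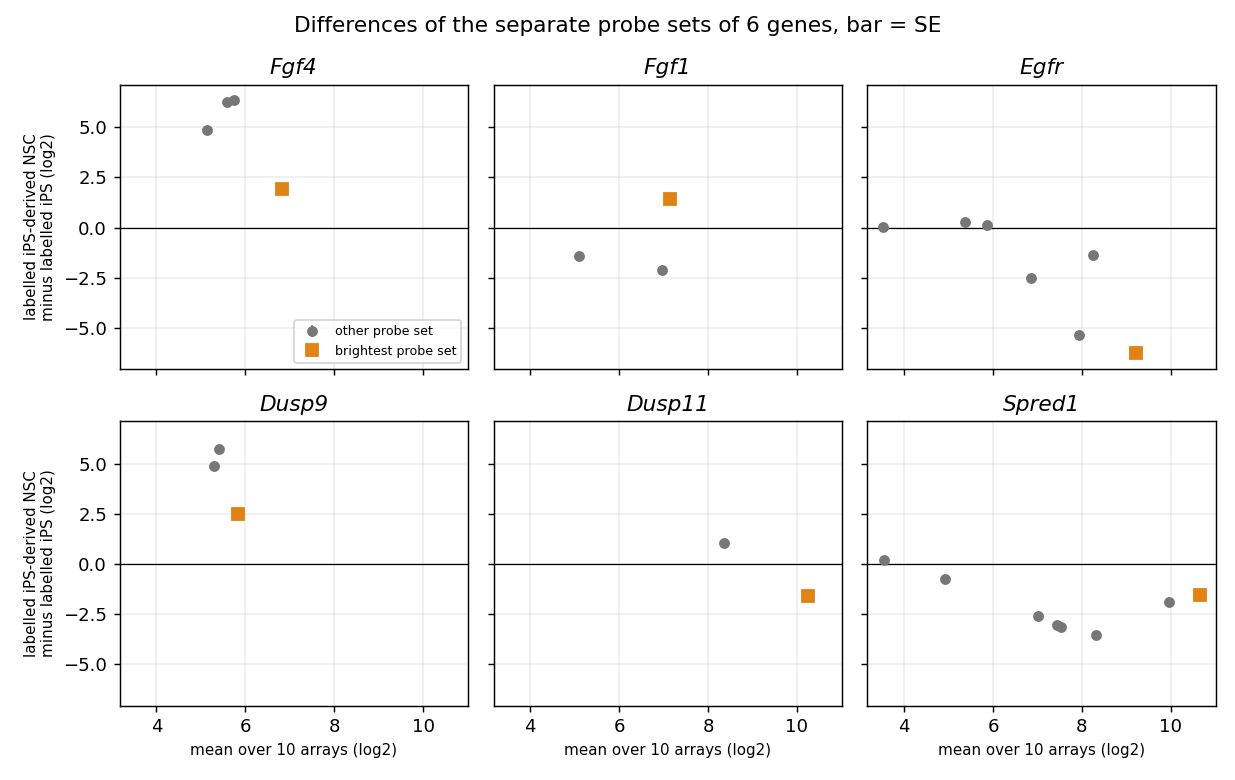
Log2 difference of the samples labelled iPS-derived NSC minus samples labelled iPS for each probe set of 6 genes, against the probe set's mean level over the 10 arrays. Squares are the brightest probe sets, circles the others and bars the SE; the Fgf4 probe sets run from 1.94 to 6.34, those of Egfr from -6.27 to 0.28, and those of Fgf1 and Dusp11 lie on both sides of 0.

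The rest of the pathway was read in 6 lists, first for the samples labelled iPS-derived NSC. Of the 75 measured genes of these lists, 40 were called over the samples labelled iPS (53.3%), beside 25.3% of all genes. Over brain NSC 35 were called (46.7%), beside 25.4%. Taken apart, 10.8% of all genes were called higher and 14.4% lower over the samples labelled iPS, and 11.3% and 14.0% over brain NSC. The medians given below stand beside 0.12 and 0.13 over all genes in these comparisons. Of 18 heparan sulphate proteoglycan and enzyme genes, whose sugar chains hold FGF on its receptor, 3 were called higher and 9 lower in the samples labelled iPS-derived NSC over those labelled iPS, with a median of -0.83, and 3 higher and 9 lower over brain NSC, with a median of -1.10. Hs6st2, a sulphotransferase, averaged 6.38 ± 0.15 in the samples labelled iPS-derived NSC, 10.73 ± 0.05 in samples labelled iPS and 9.80 ± 0.13 in brain NSC (SD, n = 3, 3 and 4). Its differences were -4.34 ± 0.11 (SE, adjusted p = 4.35e-13) and -3.42 ± 0.10 (adjusted p = 2.01e-12), or -2.18 and -1.67 averaged over its probe sets. The syndecan Sdc2 averaged 5.77 ± 0.40 in the samples labelled iPS-derived NSC, 9.03 ± 0.17 in samples labelled iPS and 10.02 ± 0.12 in brain NSC, with differences of -3.26 and -4.25.

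Of 16 Ras and Erk cascade genes measured of 23 listed, 3 were called higher and 6 lower over the samples labelled iPS, and 3 higher and 5 lower over brain NSC, with medians of -0.48 and -0.53. The adaptor Gab2 averaged 4.79 ± 0.13 in the samples labelled iPS-derived NSC, 9.18 ± 0.13 in samples labelled iPS and 9.83 ± 0.35 in brain NSC, with differences of -4.38 ± 0.17 (SE, adjusted p = 4.18e-11) and -5.04 ± 0.16 (adjusted p = 4.14e-12). Neither Gab2 difference was called (-0.46 and -0.21) once the multiple-match types of probe set were dropped. Rps6ka3, a kinase downstream of Erk, differed by -2.63 and -3.27, or, averaged over its probe sets, by -0.94, which was not called, and -1.68.

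Of 10 other feedback inhibitors, 2 were called higher and 5 lower over the samples labelled iPS, and 2 higher and 4 lower over brain NSC, with medians of -0.61 and -0.41. Lrig1, which promotes breakdown of ErbB receptors, averaged 6.07 ± 0.18 in the samples labelled iPS-derived NSC, 10.24 ± 0.11 in samples labelled iPS and 10.58 ± 0.16 in brain NSC, with differences of -4.16 ± 0.12 (SE, adjusted p = 2.72e-12) and -4.51 ± 0.11 (adjusted p = 5.33e-13). The Lrig1 differences were 0.15 and 0.24 once the multiple-match types of probe set were dropped, so its calls rest on those. Rasa3, which turns off Ras-type proteins, differed by -4.78 and -4.33.

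Of 13 Erk-responsive transcription factors, 2 were called higher and 6 lower over the samples labelled iPS, and 1 higher and 4 lower over brain NSC, with medians of -0.94 and -0.86. Elk3 differed by -3.26 ± 0.15 (SE, adjusted p = 3.52e-10) and -2.90 ± 0.14 (adjusted p = 5.11e-10), and Ets1 by -2.58 and -2.90. Averaged over their probe sets, Elk3 differed by -1.77 and -1.68 and Ets1 by -1.67 and -1.90.

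Of 9 FGF co-receptors, binding proteins and adaptors, 2 were called higher and 1 lower over the samples labelled iPS, and 2 higher and 2 lower over brain NSC, with medians of 0.19 and -0.04. Fgfbp1, which releases FGF from the matrix, was higher by 2.63 and 2.62, and Klb, the co-receptor of endocrine FGFs, by 2.42 and 2.08, or by 1.30 and 1.10 averaged over its probe sets. Of 9 other ErbB ligands, Tgfa was called lower over the samples labelled iPS (-1.05 ± 0.15, SE, adjusted p = 2.59e-05), and limma called 0 over brain NSC, where 2 had an unadjusted p under 0.05, beside 66.1% of all genes. Averaging its probe sets ended the Tgfa call (-0.25), as did leaving out replicate 2 of the samples labelled iPS-derived NSC (-0.87) or of the samples labelled iPS (-1.0).

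For the samples labelled iPS over brain NSC, 4 of the 75 measured genes of these lists were called (5.33%), beside 1.84% of all genes. They were the early-response factors Egr1 (1.35) and Ier2 (1.11) and Map2k2 (1.17), which encodes a kinase of Erk, which were higher, and Flrt2 (-1.65), which was lower; all 4 are named after their values were seen. Averaging its probe sets ended the Map2k2 call (0.74), as did leaving out iPS replicate 2 (1.04). In that comparison limma called 0 of 18 heparan sulphate genes, 0 of 10 other feedback inhibitors and 0 of 9 other ErbB ligands, where 9, 6 and 2 genes had an unadjusted p under 0.05, beside 32.5% of all genes.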

How the data were processed

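RNA of 10 mouse cell samples was measured on 10 Affymetrix arrays. The deposited values are log2 levels of probe sets from RMA, per the submitters' processing notes, run in Bioconductor, per the labels. No RMA version was found in these sources. RMA is meant to even out the distributions of the arrays, and it compresses differences of dim genes. The deposited distributions still differed, with upper quartiles of 7.80 to 7.84 in the samples labelled iPS-derived NSC. Those of the other arrays were 8.03 to 8.12. The part of this shift in the differences was not tested beyond the second quantile normalization. With no scanner files used here, other background corrections were not tried. Precision is limited by the number of arrays.

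Gene symbols came from the platform annotation, leaving out probe sets with no symbol or more than 1. Groups came from the sample titles. Differences were fitted with limma 3.58.1 (lmFit, eBayes) in R 4.3.3 over all 18193 genes and all 10 arrays in a layout of the 3 groups, with 7 residual and 5.95 prior degrees of freedom. Two-sided p-values were adjusted over all genes (Benjamini-Hochberg). A gene was called at an adjusted p under 0.05 and at least 2-fold. In data simulated for the samples labelled iPS-derived NSC over samples labelled iPS, the fit recovered 99 of 100 genes changed by 1.5 log2 units. It made 0 false calls among the genes left unchanged of the 18193 simulated. The simulated arrays were independent, with normal spread and the other genes unchanged, so few false calls at 2-fold could arise. The error rate in these data was not tested by it. Promoters were 250 bases before the start in the RefSeq table of GRCm38.p6. Figures were drawn with matplotlib 3.10.9.

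The members, the pathway lists and the genes to be named were chosen with earlier results of these data known. Besides growth factors, receptors, inhibitors and Ets factors named in advance whatever their values, each comparison added its 5 largest called rises and 5 largest called falls, and each pathway list its 2 called genes with the largest difference. Fgf1, Spred3, Fgfr1op2 and Dusp3, Dusp7, Dusp11, Dusp12, Dusp14, Dusp16 and Dusp22 were named after their values were seen. The alternatives were the mean of a gene's probe sets, no probe sets of multiple-match types, a minimum mean of 5, a second quantile normalization, an intensity trend, the fit of 2 groups alone, adjusted p alone, a replicate block and leaving out each array. Multiple-match types are those that can cross-hybridise or match several transcripts of the same gene. Same-numbered arrays of different groups had deviations correlated at -0.2098 to 0.1325 over 9 pairs, and 1 pair exceeded 0.1, so the numbers were not taken to pair the samples.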

Additional observations from a re-analysis of the deposited data

Results flagged for a closer look

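For 2 of the 65 genes, 1 brain NSC array lay far from the other 3. About 1 gene in 20 is picked out by chance, or 3.2 of 65, counting any of the 4 arrays on either side. In both genes the array was brain NSC replicate 4, on the high side. How often chance would pick that array and side was not tested. Etv5 read 12.24 in that array and 11.32 to 11.36 in the others. Fgfr1 read 10.30 there and 9.58 to 9.66 in the others.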

How the results depend on the processing

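With adjusted p alone and no minimum fold, 20 of the 65 genes were higher and 22 lower in the samples labelled iPS-derived NSC over those labelled iPS, beside 34.6% and 26.6% of all genes. Over brain NSC 26 were higher and 18 lower, beside 36.9% and 25.8%, and in the samples labelled iPS over brain NSC 13 were higher and 7 lower, beside 11.1% and 9.29%. With the mean of a gene's probe sets, 7 were called lower in the samples labelled iPS-derived NSC over brain NSC, beside 11.3% of all genes. In the samples labelled iPS over brain NSC that setting called 2 higher and 0 lower, beside 0.605% and 0.621%. Leaving out each array in turn gave, for the samples labelled iPS-derived NSC over samples labelled iPS, 9 higher each time and 15 to 16 lower. The shares of all genes were 10.8% to 11.0% and 14.2% to 14.6%. Over brain NSC, leaving out arrays gave 9 higher each time and 12 to 14 lower, beside 11.1% to 11.7% and 13.9% to 14.3%. For the samples labelled iPS over brain NSC it gave 3 to 5 higher and 0 to 2 lower, beside 0.775% to 1.82% and 0.852% to 1.13%. There were 0 lower without brain NSC replicate 1 and 2 lower without iPS replicate 2, brain NSC replicate 2 or brain NSC replicate 3. With the replicate number as a block, 9 were called higher and 15 lower in the first comparison, beside 10.8% and 14.4% of all genes. It gave 9 and 12 in the second, beside 11.7% and 13.9%. In the third it gave 5 and 1, beside 1.82% and 1.13%. Only brain NSC has a replicate 4, so against brain NSC the block gave the same differences as leaving out that array. The replicate numbers were not taken to pair the samples. For 54 genes the text names, 2340 alternative values were computed. Of these, 2165 kept their direction and their side of the threshold, 45 lost the call, 74 gained it and 56 changed sign. Adjusted p alone reuses the main differences, so it could only add calls. The minimum mean of 5, the intensity trend and the fit of 2 groups alone leave each difference unchanged and could move only its p. These counts are therefore not of independent checks. Genes outside the naming rule were added after seeing the data. The cause was not tested.

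Of the 56, 3 belonged to called differences of the samples labelled iPS-derived NSC: Fgf1 over the samples labelled iPS with the mean of its probe sets (-0.72), and Lrig1 over the samples labelled iPS (0.15) and brain NSC (0.24) without probe sets of multiple-match types. The other 53 were of differences not called. With the mean of the probe sets, these were Spry2 (0.14) and Etv4 (-0.00) over the samples labelled iPS and Fgf1 over brain NSC (-0.62) in the samples labelled iPS-derived NSC, and Fgf1 (0.10), Fgf4 (-0.05) and Tgfa (-0.02) in the samples labelled iPS over brain NSC. Without probe sets of multiple-match types, they were Fgfr2 over the samples labelled iPS (-0.04) and brain NSC (-0.02) in the samples labelled iPS-derived NSC, and Fgfr2 (0.02), Fgfr4 (-0.01), Gab2 (0.26) and Lrig1 (0.09) in the samples labelled iPS over brain NSC. A second quantile normalization turned Erbb4 over the samples labelled iPS (-0.05), Fgf2 over brain NSC (-0.07), and in the samples labelled iPS over brain NSC Dusp27, Dusp9, Fgf14 and Fgfbp1 (0.01 each). The replicate block turned Fgf2 over brain NSC in the samples labelled iPS-derived NSC (-0.04) and, in the samples labelled iPS over brain NSC, Dusp9 (0.04) and Etv5 (0.22).

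Leaving out 1 array turned differences near 0. For the samples labelled iPS-derived NSC these were Erbb2 (-0.05 to 0.06), Fgf2 (-0.04 to 0.05), Map2k2 (-0.01 to 0.51) and Spry4 (-0.01 to 0.25) over brain NSC, and Erbb4 (-0.02 to 0.07) and Fgf5 (-0.02 to 0.31) over the samples labelled iPS. For the samples labelled iPS over brain NSC they were Dusp11 (-0.00 to 0.11), Dusp12 (-0.07 to 0.01), Dusp27 (-0.07 to 0.05), Dusp9 (-0.06 to 0.04), Erbb3 (-0.04 to 0.07), Etv5 (-0.08 to 0.22), Fgf14 (-0.14 to 0.12) and Fgfbp1 (-0.06 to 0.05).

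The Egfr difference of the samples labelled iPS over brain NSC was not called at just under 2-fold. It was called with adjusted p alone, which sets no minimum fold, and after a second quantile normalization (-1.04). It was also called without iPS replicate 1 (-1.09), brain NSC replicate 2 (-1.01) or brain NSC replicate 4 (-1.08). The replicate block gave the same difference as leaving out brain NSC replicate 4, so it is no separate check. Besides calls of Dusp3, Dusp7 and Dusp22, that normalization ended those of Fgfr1 over brain NSC (-0.93) and Tgfa over the samples labelled iPS (-0.95). It also ended that of Dusp10 in samples labelled iPS over brain NSC (-0.96). It added calls of Fgf1 (1.11) and Spred3 (-1.02) over brain NSC, and of Sdc2 (-1.05) in samples labelled iPS. Of the 22 FGF ligand-family genes, which include the intracellular ones, 14 lay below the median of every array. Fgf14 was among them and was called all the same. The part of low signal in the ligand calls was not tested.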
